A study of Xenopus tropicalis with 13 samples.

Results

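Ion channel, neurotransmitter receptor and synaptic genes were followed in embryos of the frog Xenopus tropicalis, each sequenced whole and singly, after injection of a morpholino oligonucleotide (MO) in a study of Taf15, an RNA-binding protein. Genes were chosen by the start of their symbol, which covers potassium (kcn), sodium (scn), calcium (cacn), HCN and TRP channels, receptors for GABA, glutamate, glycine, acetylcholine (chrn) and serotonin (htr), synaptotagmins, synapsins, syntaxins, syp and dbh. Of 3270 genes in the deposited lists, 44 had such a symbol. A total of 37 were listed for a changed RNA level, 9 for a changed gene segment, and 2 of these for both. Levels are given as log2 fold changes of MO-injected over uninjected embryos with the standard error after ±, both from the authors' deposited tables. Polyadenylated RNA of early gastrulae (stage 10) came from 3 uninjected and 3 MO-injected embryos. That of neurulae (stage 15), whose neural plate is folding, came from 4 uninjected and 3 MO-injected ones. The labels give no strain and do not say which of the study's morpholinos was injected, and the controls were not injected at all, so effects of the injection and of Taf15 depletion cannot be told apart. The deposited tables list only what passed the authors' threshold, an adjusted p of 0.1. A change of at least 2-fold was also met by all listed gene segments at both stages and all listed levels at stage 15. A gene that is absent was therefore not shown to be unchanged, taf15 itself is in none of the lists, and the depth of each library is unknown.

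As background, voltage-gated channels open in response to membrane voltage and shape the electrical activity of neurons and muscle, while ligand-gated receptors convert a released transmitter into a current or a second-messenger signal. Release itself uses syntaxins, which drive membrane fusion, synaptotagmins, which sense calcium, and synapsins and synaptophysin, which sit on synaptic vesicles. In frog embryos the first neurons and skeletal muscle differentiate around the neurula stages, and channels also act in cells that are not excitable, such as epithelia.

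At stage 15, 36 of these genes changed in level, 27 of them lower and 9 higher in MO-injected embryos. Lower genes thus made up 75.0% of the listed channel, receptor and synaptic genes, beside 54.9% of all 2094 genes of the list, and higher genes 25.0% beside 45.1%. All 7 listed genes of the synaptic group fell, as did 7 of 9 receptor symbols and 13 of 20 channel symbols. The lower receptor symbols include htra2 and the lower channel symbols kcnrg, which encode neither a receptor nor a channel. Both are counted among the 27 lower genes. Without them 25 genes were lower and 9 higher. Among RefSeq protein-coding symbols, 9.52% of the 273 that fit the choice were listed as lower, beside 5.14% of all 15628, and 3.30% were listed as higher, beside 3.35%. Only 804 of the 1150 lower and 523 of the 944 higher listed genes matched a RefSeq symbol. Of the choice, 26 of 27 lower and 9 of 9 higher genes did. The shares of all RefSeq symbols can therefore be too low beside those of the choice, here and below. Which of these symbols the authors tested is not given either, so these shares are descriptions. The median log2 fold change of the 27 lower genes was -2.30, beside -1.59 for all 1150 lower genes, and 17 of the 27 (63.0%) fell at least 4-fold, beside 32.3% of all lower genes. For the 9 higher genes the median was 1.56, beside 1.72 for all 944 higher genes, and only cacna1a, 1 of the 9, rose at least 4-fold, beside 36.4% of all higher genes. The median of the mean normalised counts was 55.0 for the 27 lower genes, beside 79.6 for all lower genes. For the 9 higher genes it was 30.6, beside 75.2 for all higher genes. Sizes of change were not compared at like counts.

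**Figure D1:**
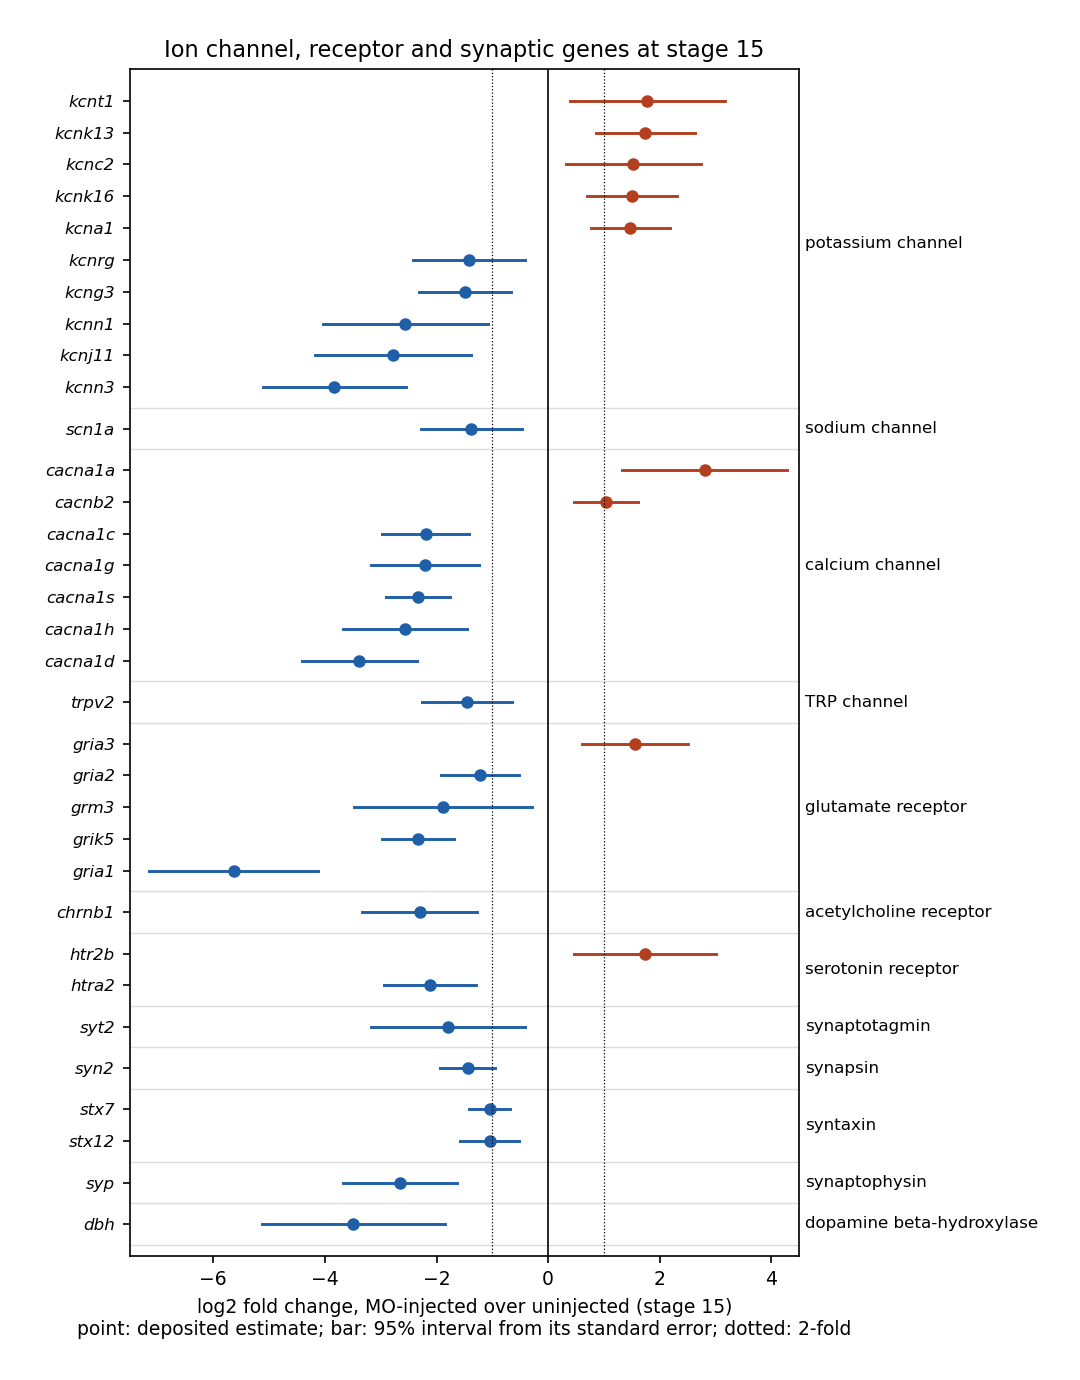
Deposited log2 fold changes at stage 15 (x axis; MO-injected over uninjected) of 33 of the 36 listed channel, receptor and synaptic genes, those reported by name, 1 row a gene, with bars for the 95% interval from the standard error, red for higher and blue for lower. The lower genes run from stx7 at -1.05 to gria1 at -5.63 and the 9 higher ones from cacnb2 at 1.03 to cacna1a at 2.80.

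Calcium channel genes moved in both directions within the family of pore-forming subunits. RefSeq names 10 such cacna1 genes, of which 5 fell, 1 rose and 4 were not listed. Over all RefSeq symbols, 5.14% were listed as lower and 3.35% as higher. The largest fall was that of cacna1d, a subunit of L-type channels of neurons, heart pacemaker and endocrine cells, with a log2 fold change of -3.38 ± 0.524 (adjusted p = 6.94e-09) in the authors' deposited table, a 10.4-fold lower level. The T-type subunit cacna1h, of channels that open at low voltage, fell by 2.57 ± 0.565 log2 units (adjusted p = 0.000105) in the authors' deposited table. The related T-type gene cacna1g fell by 2.21 ± 0.495 log2 units in the authors' deposited table. The L-type subunit of heart, smooth muscle and neurons, cacna1c, fell by 2.20 ± 0.395 log2 units in the authors' deposited table. The skeletal muscle L-type subunit cacna1s, whose protein is the voltage sensor of excitation-contraction coupling, fell by 2.33 ± 0.290 log2 units (adjusted p = 1.73e-13), the smallest adjusted p of all 36 genes in the authors' deposited table. Against these falls, cacna1a, the P/Q-type subunit known for transmitter release at nerve endings, was 6.98-fold higher with a log2 fold change of 2.80 ± 0.756 (adjusted p = 0.00223) in the authors' deposited table. Its mean normalised count over the embryos of both stages was only 11.1, and the 95% interval of its fold runs from 2.50 to 19.5. The accessory beta subunit gene cacnb2 rose by 1.03 ± 0.291 log2 units (adjusted p = 0.00372) in the authors' deposited table. None of the 4 alpha-2/delta and 8 gamma subunit genes that RefSeq names was listed for level. At the shares over all RefSeq symbols, these genes are too few for their absence to be read as a result. The neuronal sodium channel gene scn1a fell by 1.37 ± 0.460 log2 units (adjusted p = 0.0175) in the authors' deposited table.

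Symbols of the potassium channel family were evenly split, with 5 higher and 5 lower among the 92 that RefSeq names. Of all RefSeq symbols 3.35% were listed as higher and 5.14% as lower, and of all listed genes 45.1% were higher and 54.9% lower. For kcnn3, a small-conductance channel opened by intracellular calcium, the log2 fold change was -3.83 ± 0.652 (adjusted p = 1.86e-07) in the authors' deposited table, or 14.2-fold lower. Its relative kcnn1 fell by 2.56 ± 0.755 log2 units (adjusted p = 0.00591) in the authors' deposited table. The inward rectifier kcnj11, the pore of channels closed by ATP, fell by 2.78 ± 0.713 log2 units (adjusted p = 0.00117) in the authors' deposited table. The silent subunit gene kcng3, which modifies other voltage-gated channels, fell by 1.49 ± 0.423 log2 units in the authors' deposited table. The last of the lower symbols, kcnrg, fell by 1.42 ± 0.513 log2 units in the authors' deposited table and encodes a regulator of potassium channels and not a channel.

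The 5 higher potassium channel genes had similar point estimates. In the authors' deposited table, kcnt1, a sodium-activated channel, was at 1.78 ± 0.705, with an adjusted p of 0.0524. The tandem-pore channels kcnk13 and kcnk16, which carry background currents, were at 1.74 ± 0.451 (adjusted p = 0.00129) and 1.51 ± 0.409 (adjusted p = 0.00242) in the authors' deposited table. The shaker-type voltage-gated channel kcna1 rose by 1.48 ± 0.362 log2 units (adjusted p = 0.000623) in the authors' deposited table. The shaw-type channel kcnc2, which lets neurons fire rapidly, was at 1.53 ± 0.617 (adjusted p = 0.0583) in the authors' deposited table. Their 95% intervals overlapped one another throughout. Differences among these genes, measured in the same embryos, were not tested, so no order is given.

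Among receptors, the glutamate receptor family is the largest, with 26 RefSeq symbols, of which 4 were listed as lower and 1 as higher. The shares over all RefSeq symbols were 5.14% lower and 3.35% higher. The AMPA receptor family was divided. The gene gria1 fell by 5.63 ± 0.771 log2 units (adjusted p = 3.03e-11) in the authors' deposited table, the largest change of the 37 genes listed for level. Its fold was 49.6, with a 95% interval from 17.4 to 141, at a mean normalised count of 24.1. The subunit gene gria2, which in mammals sets the calcium permeability of AMPA receptors, fell by 1.22 ± 0.356 log2 units (adjusted p = 0.00536) in the authors' deposited table, so its 95% interval (-1.92 to -0.52) lay apart from that of gria1 (-7.14 to -4.12). In contrast, gria3 rose by 1.56 ± 0.488 log2 units (adjusted p = 0.0103) in the authors' deposited table. The fourth AMPA gene that RefSeq names, gria4, was not listed. Because the 3 genes were measured in the same embryos and no covariance is used here, the differences between them were not tested.

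The other glutamate receptor genes were lower. The kainate receptor subunit grik5 fell by 2.33 ± 0.328 log2 units (adjusted p = 1.02e-10) in the authors' deposited table. The metabotropic receptor grm3, which signals through a G protein, was at -1.88 ± 0.814 (adjusted p = 0.0816) in the authors' deposited table, with a mean normalised count of 6.51, the lowest of the 36 genes. No NMDA receptor gene was listed, of 8 RefSeq symbols that start with grin, too few for their absence to be read as a result.

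Listed receptors for the other transmitters are given beside the shares of all RefSeq symbols, 5.14% listed as lower and 3.35% as higher. The muscle acetylcholine receptor subunit chrnb1 fell by 2.30 ± 0.526 log2 units (adjusted p = 0.000202) in the authors' deposited table and was the only one listed of 16. The serotonin receptor htr2b was higher at 1.73 ± 0.649 (adjusted p = 0.0383) in the authors' deposited table. The lower symbol htra2 (-2.11 ± 0.421, adjusted p = 1.38e-05, authors' deposited table) encodes a mitochondrial serine protease that shares only the letters of its name with the serotonin receptors. None of the 3 glycine receptor and 3 HCN channel symbols was listed. At those shares, groups this small are too few for their absence to be read as a result.

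All 7 listed genes of the synaptic group were lower, beside 54.9% of all listed genes. The group takes in syntaxins that are not confined to synapses and the enzyme gene dbh. In the authors' deposited table syp, the vesicle membrane protein synaptophysin, was 6.32-fold lower (log2 fold change -2.66 ± 0.522, adjusted p = 9.37e-06). The synapsin gene syn2, whose protein tethers vesicles, fell by 1.44 ± 0.252 log2 units (adjusted p = 3.87e-07) in the authors' deposited table, with a mean normalised count of 384. The calcium sensor gene syt2 was at -1.79 ± 0.703 (adjusted p = 0.0505) in the authors' deposited table. Falls close to the 2-fold limit were those of stx7 (-1.05 ± 0.186, adjusted p = 5.83e-07) and stx12 (-1.05 ± 0.274, adjusted p = 0.00145) in the authors' deposited table, syntaxins of endosomes that are used in all kinds of cells. The gene dbh, dopamine beta-hydroxylase, which makes noradrenaline from dopamine, was 11.2-fold lower (log2 fold change -3.49 ± 0.835, adjusted p = 0.000431, authors' deposited table) at a mean normalised count of 10.3.

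A list of 116 further genes of synapses and excitability, outside the symbol choice, had 17 genes listed for level at stage 15, 14 of them lower (82.4%, beside 54.9% of all listed genes) and 3 higher, and none at stage 10. Of the list, 9 genes (7.76%) had a listed bin at stage 15, beside 5.23% of RefSeq symbols. The lower genes named here were picked after their values were seen. In the authors' deposited table th, tyrosine hydroxylase, fell by 2.17 ± 0.542 log2 units, ddc, the decarboxylase that makes dopamine, by 1.94 ± 0.646 log2 units, and the dopamine transporter slc6a3 by 2.07 ± 0.467 log2 units. In the authors' deposited table snap25, the fusion partner of syntaxin, fell by 1.72 ± 0.589 log2 units and rims2 of the active zone by 1.29 ± 0.372 log2 units. The gene musk, a kinase that gathers acetylcholine receptors at the muscle endplate, fell by 3.13 ± 0.522 log2 units (adjusted p = 9.29e-08) in the authors' deposited table. The 3 higher genes were the cyclic nucleotide-gated channels cnga3 (2.58 ± 0.958) and cngb1 (1.71 ± 0.536) and pkd1l1 (1.16 ± 0.501, authors' deposited table).

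Markers of several cell types also moved at stage 15. Of 12 muscle markers, 6 were lower, 1 higher and 5 not listed, with myh4 at -7.96 ± 0.379 and acta1 at 1.73 ± 0.269 in the authors' deposited table. Of 15 neuron markers, with snap25 again among them, 4 were lower, 3 higher and 8 not listed, among them isl1 at 1.25 ± 0.276 (authors' deposited table). Of 7 markers of multiciliated cells and ionocytes 2 were lower, of 5 markers of neural crest and pigment cells 2 were lower and 1 higher, and of 5 oocyte and maternal markers 4 were higher. Lower genes made up 85.7% of the listed muscle markers and 57.1% of the listed neuron markers, beside 54.9% of all listed genes. Of all RefSeq symbols, 5.14% were listed as lower and 3.35% as higher. The part of these cell types in the falls of the muscle genes cacna1s and chrnb1 or of the neuronal genes was not tested. In RNA from whole embryos, fewer cells of a type and less RNA per cell cannot be told apart. The level tables hold no values per embryo, so no summed marker level can be given.

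The precision of these estimates differed between genes of like abundance. In the authors' deposited table, 32 of the 36 genes (88.9%) were past an adjusted p of 0.05, beside 86.9% of all listed genes. The 4 that were not are kcnt1, kcnc2, syt2 and grm3. Mean normalised counts were under 20 for 10 of the 36 (27.8%), beside 22.1% of all listed genes. The standard error of kcnt1 was larger than that of 94.9% of the 610 listed genes with a mean normalised count within a factor of 2 of its own, whose median was 0.417. For stx7 this share was 3.05% of 491 genes, which put this small change among the most precise.

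**Figure D2:**
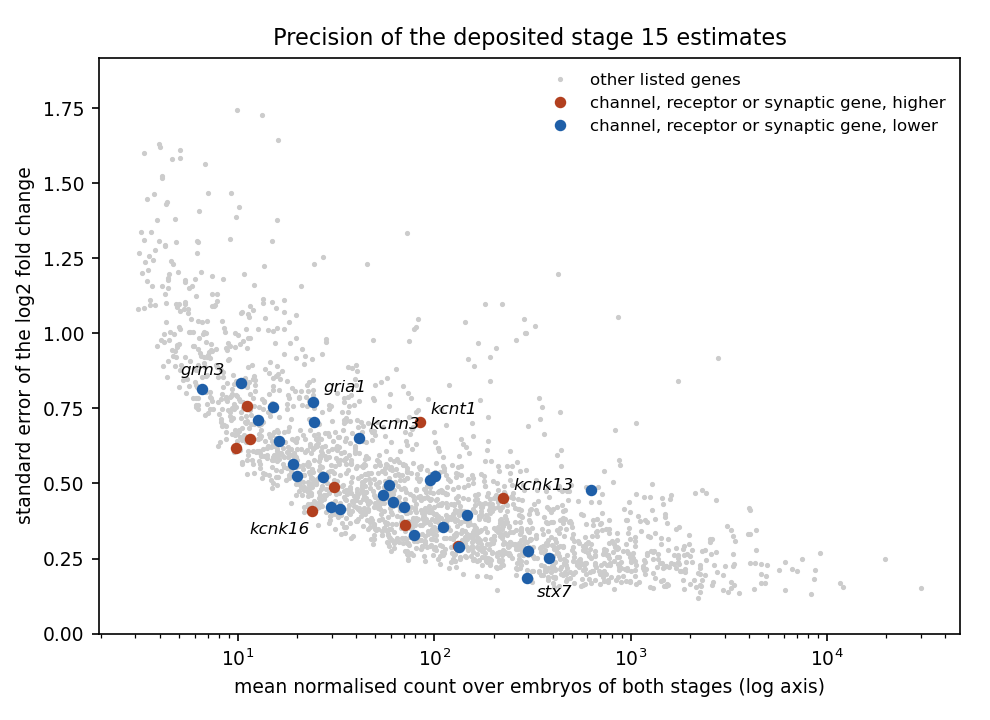
Standard error of the deposited log2 fold change at stage 15 (y axis) against the mean normalised count over embryos of both stages (x axis, log scale) for all 2094 listed genes (grey) and the 36 channel, receptor and synaptic genes (red higher, blue lower). The error of kcnt1 (0.705) lies above most genes of like count, and that of stx7 (0.186) lies below.

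At stage 10 a single one of these genes changed in level. The gene kcnk5, a tandem-pore potassium channel sensitive to external pH, fell by 1.11 ± 0.235 log2 units (adjusted p = 0.000633) in the authors' deposited table, a 2.17-fold lower level, at a mean normalised count of 553. Lower genes made up 56.5% and higher genes 43.5% of the 292 genes listed at this stage. Of the 273 RefSeq symbols that fit the choice, 0.366% were listed as lower and 0 as higher, beside 0.851% and 0.646% of all RefSeq symbols. At stage 15 kcnk5 was not listed, and none of the 36 genes of stage 15 was listed at stage 10. No difference between the stages could therefore be tested for any of these genes.

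The second measurement was the use of gene segments. A bin is a piece of a gene, and its usage is its reads relative to those of the rest of the gene, given as a log2 ratio of MO-injected over uninjected embryos. Every bin in the deposited lists, of any gene, had a usage at least 2-fold higher in MO-injected embryos, so the direction of a listed bin is not read as a result. At stage 10, 2 bins of 2 of these genes were listed, and at stage 15, 11 bins of 8 genes, in all 13 entries and 9 genes. Genes with a listed bin made up 0.733% of the 273 RefSeq symbols of this choice at stage 10, beside 0.973% of all, and 2.93% at stage 15, beside 5.23% of all. Groups did not overlap in raw counts, with every MO-injected embryo above every uninjected one, in both bins at stage 10 (beside 97.4% of all listed bins) and in 5 of 11 bins, or 45.5%, at stage 15 (beside 75.5%). Raw counts are not corrected for depth, the bins were chosen by the authors on these counts, and they are given here as descriptions with no test. The deposited numbers of the count columns are not tied to the labelled embryos, and coordinates are those of the deposited tables, for which the sources used here give no genome build.

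The bin that was listed at both stages lay in trpc4ap, at positions 6012054 to 6012079 of scaffold 10 on the minus strand, only 26 bases long. The protein binds a TRP channel and serves a ubiquitin ligase and is not itself a channel. At stage 10 the MO-injected embryos had 16, 16 and 19 reads in it, and the uninjected embryos 1, 2 and 3. At stage 15 the MO-injected embryos had 26, 37 and 46 reads, and the uninjected embryos 5, 1, 10 and 0. All MO-injected embryos were above all uninjected ones at both stages. The log2 usage ratio was 1.49 at stage 10 (adjusted p = 0.000155) and 1.51 at stage 15 (adjusted p = 0.000277) in the authors' deposited tables. The means of the raw counts were 17.0 ± 1.73 (SD, n = 3) against 2.0 ± 1.0 (SD, n = 3), and 36.3 ± 10.0 (SD, n = 3) against 4.0 ± 4.55 (SD, n = 4). This gene was not listed for level at either stage.

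The other bin of stage 10 lay in kcnn2, a calcium-activated potassium channel related to kcnn3. It spans positions 34245896 to 34246023 of scaffold 1, 128 bases on the plus strand. MO-injected embryos had 12, 9 and 17 reads in it and uninjected embryos 1, 2 and 0, with a log2 usage ratio of 1.60 (adjusted p = 0.0155, authors' deposited table). The groups did not overlap, and the uninjected counts were close to 0.

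At stage 15 the largest raw counts were those of trpv5, a calcium-selective TRP channel of calcium-transporting epithelia. Its 2 listed bins, of 951 and 525 bases, lie on scaffold 595 with 77 bases between them. In the first, at positions 5618 to 6568, MO-injected embryos had 19, 35 and 89 reads and uninjected embryos 0, 4, 2 and 2. In the second, at positions 6646 to 7170, MO-injected embryos had 10, 42 and 71 reads and uninjected embryos 0, 1, 0 and 3. The groups did not overlap in either bin, though the MO-injected embryos themselves differed several-fold. Over the 11 bins of stage 15, the first MO-injected column was lowest or tied lowest in 7, the second in 5 and the third in 1. These counts are not corrected for depth. The log2 usage ratios were 2.27 (adjusted p = 2.14e-09) and 2.67 (adjusted p = 0.000314) in the authors' deposited table.

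The related channel gene trpv6 had a listed bin of 22 bases on scaffold 1725, with 5, 5 and 4 reads in MO-injected and 0, 0, 1 and 3 in uninjected embryos. Its groups did not overlap, but the gap between them was 1 read. In RefSeq's annotation trpv5 and trpv6 are direct neighbours and close relatives, and how the authors counted reads that fit both is not given, so the bins of this pair are uncertain. The syntaxin gene stx3, whose protein directs fusion at the apical membrane of epithelia and at sensory ribbon synapses, had a bin of 1791 bases on scaffold 400. MO-injected embryos had 9, 30 and 39 reads in it and uninjected embryos 2, 1, 0 and 0, with a log2 usage ratio of 2.84 (adjusted p = 8.55e-08, authors' deposited table), the highest of the 13. The only TRP channel gene listed for level was trpv2, at -1.45 ± 0.414 (adjusted p = 0.00414) in the authors' deposited table.

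**Figure D3:**
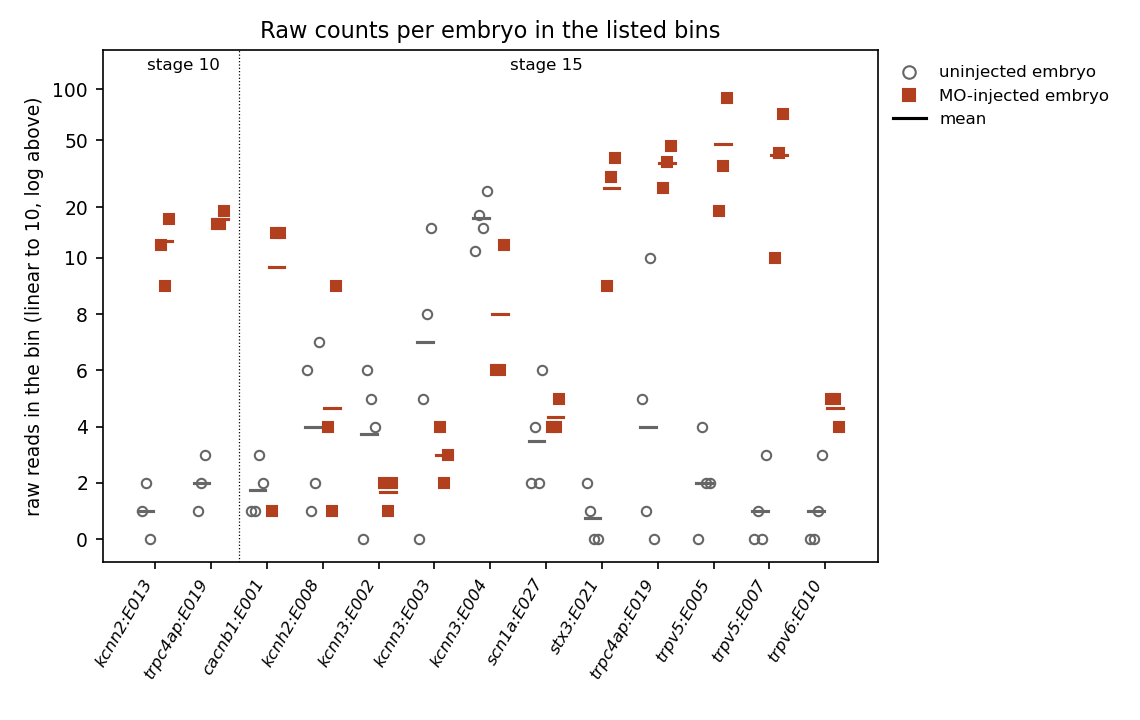
Raw reads per embryo (y axis, linear to 10 and logarithmic above) in the 13 listed bins of channel, receptor and synaptic genes (x axis), with open circles for uninjected and red squares for MO-injected embryos and short lines for means. The squares lie above all circles in both bins of stage 10 and in 5 of 11 bins of stage 15, while in the 3 kcnn3 bins the mean of the squares lies below that of the circles.

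In kcnn3 the listed bins had fewer reads after injection, not more. The 3 bins abut one another on the minus strand of scaffold 8c, from position 175563 to 177109, and together span 1547 bases. In the longest, E004 of 1117 bases, MO-injected embryos had 6, 6 and 12 reads and uninjected embryos 11, 18, 15 and 25, with means of 8.0 ± 3.46 (SD, n = 3) and 17.2 ± 5.91 (SD, n = 4). The neighbouring bin E003 had 4, 2 and 3 reads in MO-injected and 0, 5, 8 and 15 in uninjected embryos. In E002 there were 2, 1 and 2 reads against 0, 6, 5 and 4. The groups overlapped in all 3 bins. The log2 ratios of mean raw counts, with a pseudocount of 0.5, were -1.06, -1.10 and -0.97, and without the fourth uninjected column that of E003 was -0.47. The gene as a whole stood at -3.83 in the authors' deposited table, a value corrected for depth, which the raw ratios are not. Divided by the total over all listed bins, the 3 ratios were -4.40, -4.07 and -3.92. That total is a sum over bins listed as higher and no measure of depth, so the division cannot decide anything here. Without a correction for depth, raw counts do not settle whether the bins fell less than their gene. The log2 usage ratios of the bins compare them with the rest of the gene. These ratios were 1.28 for E004 (adjusted p = 3.55e-10), 1.26 for E003 (adjusted p = 0.00254) and 1.29 for E002 (adjusted p = 0.0641) in the authors' deposited table. By these ratios the bins fell less than the rest of kcnn3, but every listed bin had a higher usage. Of 1429 listed bins at stage 15, 12 (0.84%) had a lower raw mean in MO-injected embryos, and these 3 are among them.

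The neuronal sodium channel gene scn1a, the other gene listed for both, had a bin of 273 bases on scaffold 9 with 4, 4 and 5 reads in MO-injected and 2, 4, 2 and 6 in uninjected embryos. Its groups overlapped, and its log2 ratio of raw means was 0.27, beside -1.37 for the gene in the authors' deposited table. Only the value for the gene is corrected for depth. The log2 usage ratio of the bin was 1.03 (adjusted p = 0.0687) in the authors' deposited table. Genes listed for level made up 2 of the 8 with bins at stage 15 (25.0%), beside 16.2% of all genes with a listed bin. At stage 10 this was true of neither gene, beside 5.73% of all.

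The remaining bins of stage 15 were thinly covered. The beta subunit gene cacnb1, whose protein belongs to the skeletal muscle calcium channel, had a bin of 1003 bases with 1, 14 and 14 reads in MO-injected and 1, 1, 3 and 2 in uninjected embryos (adjusted p = 0.0895, authors' deposited table). Of the injected embryos, 1 was thus within the range of the uninjected ones, and the others were above it. That embryo was in the first MO-injected column, which was lowest or tied lowest in 7 of the 11 bins. The potassium channel gene kcnh2, known for heart repolarization, had a bin of 400 bases with 4, 1 and 9 reads in MO-injected and 6, 1, 2 and 7 in uninjected embryos (adjusted p = 0.0410, authors' deposited table). Its groups overlapped almost fully in raw counts. None of the 11 bins of stage 15 carried a score in the column of retention scores that the authors deposited at that stage. How many of all listed bins carried one is not given here, so this absence is not read as a result.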

How the data were processed

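Polyadenylated RNA of 13 single embryos was sequenced. Per the submitters' processing notes TopHat, Bowtie, Cufflinks, Cuffdiff, DESeq and DESeq2 were used, with no versions or roles given; the sources used here give no genome build, annotation or counting method. Per the file headers, the level tables hold a signal, the mean of the authors' normalised counts,, log2 fold change, its standard error (a score), p-value and adjusted p. The bin tables hold raw counts per embryo that the authors deposited, their mean (signal), usage scores, a log2 ratio of usage, p-values and adjusted p. Embryos are separate animals, and the spread among them underlies the deposited p-values.

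Positive log2 fold changes are read as higher in MO-injected embryos, because they follow the log2 ratio of raw bin counts across genes with a listed bin (Spearman correlation 0.709 over 11 genes at stage 10 and 0.699 over 169 at stage 15; genes are not independent replicates). The sign of the usage ratio, deposited as uninjected over MO-injected, was turned. The count columns of the stage 15 bin table carry stage 10 in their names but were taken as stage 15, as in its fitted columns, because 4 of them are uninjected. One uninjected embryo carries both stages in its labels and was placed at stage 15 by its title and stage field.

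No model was refitted, because the tables hold only listed items, and no test of a set was made. The planned Wald test between stages had no gene to test. Intervals of 95% were formed from the standard errors. Symbols were matched as the tables write them, and 43 of 44 are in RefSeq's table of the assembly UCB_Xtro_10.0 (syt2 is not), which served for names and neighbours. Some genes of the choice are counted but not reported here by name; the rule was to name all genes of the choice. The 116 related genes and the markers were fixed as lists, and genes and lists were chosen with earlier results of these data known. Computation used pandas 2.3.3 and scipy 1.17.1, with functions checked on simulated data.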

Additional observations from a re-analysis of the deposited data

How the results depend on the processing

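With an adjusted p under 0.05, a mean normalised count of at least 10, RefSeq synonyms, or without htra2, kcnrg and trpc4ap (the last chosen after seeing the data), the numbers of higher and lower genes at stage 15 stayed within 1.5 times those reported. With a 4-fold limit they were 1 and 17. RefSeq synonyms added no gene, so that setting could not change the numbers. With a mean raw count of at least 10, the genes with bins numbered 0 at stage 10 and 4 at stage 15, and without trpc4ap there was 1 at stage 10. Leaving out 1 embryo at a time, the bins without overlap numbered 2 at stage 10 and from 5 to 6 at stage 15. Leaving out an embryo can only keep or raise this number, so it does not check the dependence on single embryos. The log2 ratio for kcnh2 ran from -0.58 to 0.64 when embryos were left out, and is negative without the third MO-injected or the second uninjected column and 0 without the third uninjected column. Division by the total over all listed bins turned the log2 ratio to -0.39 and -0.10 for trpc4ap at stages 10 and 15, -0.82 for trpv6, -2.93 for kcnh2, -2.86 for scn1a and -0.94 for cacnb1. That total was 11.4-fold higher in MO-injected embryos at stage 10 and 10.6-fold at stage 15 and is a sum over bins listed as higher, so it is no measure of depth. Other values among the 128 alternatives for the 13 ratios kept their sign. No paired analysis was possible because the count columns are not tied to the labelled embryos and the level tables hold no values per embryo.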
